A study of Oryza sativa with 60 samples.

Results

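Anthers of 1.6 mm were compared with anthers of 1.4 mm in wild-type Kitaake rice, a japonica cultivar widely used for transformation. The comparison used the 3 polyadenylated RNA libraries titled 1.6 mm and the 3 titled 1.4 mm, out of 30 such libraries of 10 anther lengths and 60 libraries in all. No library carried a mutation or a treatment, and the groups differed by anther length alone, as far as the labels say. An index in the deposited names, whose meaning is not stated, also split the groups completely and is taken up below. Each sample held 20 to 30 anthers of greenhouse plants. The samples of a length are described as biological replicates, but whether they came from separate plants is not given. The p-values below therefore measure the spread between samples of the same length, pooled over all 10 lengths.

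A rice anther is a small organ with a layered wall around the pollen sacs, called locules. The innermost wall layer, the tapetum, feeds the developing male cells and supplies material for the pollen wall before it breaks down. Male cells pass through meiosis, form tetrads, are released as microspores and mature into pollen, and anther length is commonly used as a guide to these stages. The sources used here do not say which stage the 1.6 and 1.4 mm anthers had reached.

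Levels are FPKM, a transcript's fragments scaled to its length and to the mapped fragments of the library, summed over the transcript entries of a gene. The files listed 35594 gene IDs of the Kitaake annotation, and neither they nor the rice reference table paired any of these IDs with a name. The anther label could not be checked against marker genes for that reason, and only 2 genes that rose and 2 that fell are given by ID. Differences are log2 differences of FPKM + 1, fitted in limma over all 30 libraries for the 26091 genes that reached 1 FPKM in 3 or more libraries. A gene was called at an adjusted p (Benjamini-Hochberg) under 0.05 and a change of at least 1 on the log2 scale, that is a doubling of FPKM + 1. The depth behind the FPKM is unknown, so no counting interval is given.

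The library labelled 1.4 mm replicate 2 stood apart from the other 1.4 mm libraries. Across genes, which are not independent replicates, it correlated with 1.6 mm replicates 1, 2 and 3 at Pearson's r = 0.881, 0.883 and 0.885. The corresponding values were 0.790, 0.792 and 0.798 for 1.4 mm replicate 1, and 0.779, 0.779 and 0.784 for 1.4 mm replicate 3. The 1.6 mm libraries correlated with each other at 0.985 to 0.989 and the 1.4 mm libraries at 0.936 to 0.969. The median SD of a gene between replicates was 0.137 at 1.6 mm and 0.314 at 1.4 mm on the log2 scale, and 79.1% of tested genes varied more at 1.4 mm. The counts of calls, the fold changes of the named genes and the shares by length are therefore also given without 1.4 mm replicate 2, while sums of FPKM are given for each library.

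Between 1.4 and 1.6 mm, 5402 genes changed, 20.7% of those tested. In 1.6 mm anthers 3359 genes were higher (12.9%) and 2043 were lower (7.83%). The median change of the genes that rose was 1.47 on the log2 scale and that of the genes that fell -1.70, against 0.144 over all tested genes. Falls were larger: 153 genes (7.49% of the falls) fell by at least 4 log2 units and 20 by at least 8, while 94 genes (2.80% of the rises) rose by at least 4 and 0 by at least 8. In anthers, as in any bulk sample, fewer cells of a type and less RNA per cell cannot be told apart.

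The groups did not overlap for 3256 of the 3359 genes that rose (96.9%) and for 1995 of the 2043 that fell (97.7%). Over all tested genes, 31.2% lay wholly above and 18.8% wholly below in 1.6 mm anthers, so a lack of overlap among called genes is mostly fixed by the call. Without 1.4 mm replicate 2, 6531 genes were called (25.1%), 4402 higher and 2129 lower at 1.6 mm. Of these, 3285 rises and 1904 falls were among those of the full comparison.

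The balance of rises and falls moved when the libraries were rescaled. Rises made up 62.2% of the calls on the deposited FPKM, 51.4% after quantile normalization and 51.5% after scaling by median ratios. These scalings moved the median change of all tested genes to 0.011 and 0.013 on the log2 scale. After quantile normalization 2725 of the 3359 rises (81.1%) and 2039 of the 2043 falls (99.8%) were still called, and 0 had the opposite direction.

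**Figure D1:**
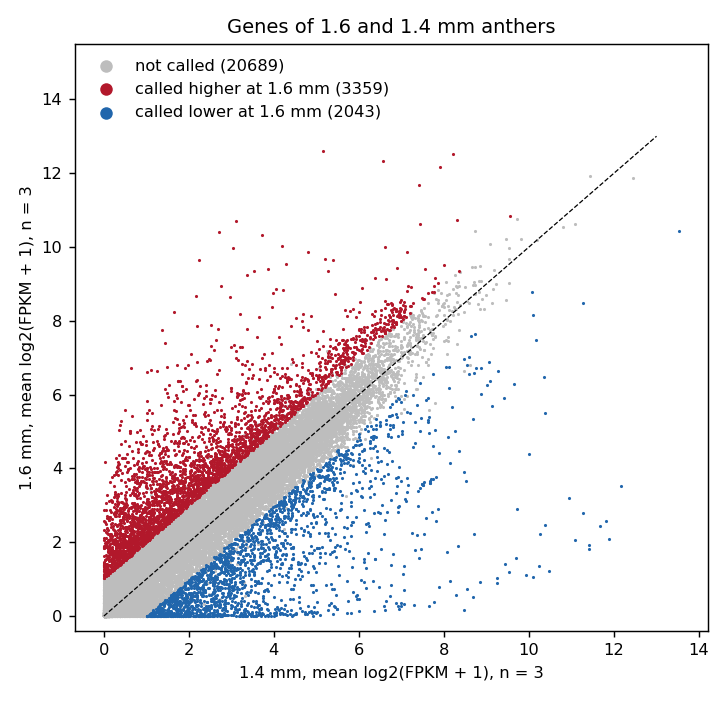
Mean log2(FPKM + 1) of each tested gene in 1.6 mm anthers (vertical axis) against 1.4 mm anthers (horizontal axis), 3 libraries each, with called genes in colour and equality as a dashed line. The 20 genes that fell by at least 8 log2 units lie at the lower right, and no gene that rose lies equally far from the line.

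Genes that rose were moderate in level, and many of them reached 1 FPKM in at least 1 library of 1.4 mm. Their median level was 12.3 FPKM at 1.6 mm and 2.82 FPKM at 1.4 mm. At 1.6 mm, 1891 of them had at least 10 FPKM, 372 at least 100 and 14 at least 1000. In 599 of the 3359 genes all 3 libraries of 1.4 mm lay under 1 FPKM, and 34 of these had at least 10 FPKM in every 1.6 mm library. The 1.4 mm values include replicate 2, which correlated most with 1.6 mm, and were not worked out without it.

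Genes that fell had a median level of 1.32 FPKM at 1.6 mm and 9.92 FPKM at 1.4 mm. At 1.4 mm, 1017 of them had at least 10 FPKM, 189 at least 100 and 24 at least 1000. In 832 of the 2043 genes all 3 libraries of 1.6 mm lay under 1 FPKM, and 89 of these had at least 10 FPKM in every 1.4 mm library. Of the falls, 80 were listed at 0 in all 3 libraries of 1.6 mm, and of the rises, 27 were listed at 0 in all 3 libraries of 1.4 mm.

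By mean level over all 30 libraries, called genes were spread unevenly. Among the 845 tested genes that averaged 100 FPKM or more, 262 were higher (31.0%) and 75 lower (8.88%) at 1.6 mm. Among the 9561 genes of 10 to 100 FPKM, 12.9% were higher and 6.50% lower, and among the 12253 genes of 1 to 10 FPKM 13.8% and 8.40%. Among the 3432 genes under 1 FPKM, 5.16% were higher and 9.27% lower. The mean includes the compared libraries, and the differences between these classes were not tested. A gene averaging under 1 FPKM was tested only if some libraries still reached 1 FPKM, and these could be the compared ones. The shares called in that class therefore depend on this filter as well. A call also needs a change of at least 1 in log2(FPKM + 1), which is harder to reach at low levels. The share of falls was nonetheless largest under 1 FPKM.

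OsKitaake06g184500.v3.1, whose ID places it on chromosome 6, rose most. It had 1306, 1259 and 1514 FPKM in 1.6 mm replicates 1, 2 and 3, against 25.0, 4.81 and 0.857 FPKM in 1.4 mm replicates 1, 2 and 3. Every 1.6 mm library lay above every 1.4 mm library, and replicate 1 was the highest of the 1.4 mm libraries. The log2 fold change was 7.69 (SE 0.85, adjusted p = 1.30e-07 in limma). In the other lengths it averaged at most 2.46 ± 3.06 FPKM from 0.4 to 1.2 mm (mean ± SD, n = 3), then 1363 ± 336 at 1.8 mm, 349 ± 165 at 2.0 mm and 10.6 ± 17.6 at 2.5 mm.

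OsKitaake04g122700.v3.1, numbered on chromosome 4, followed. It had 1748, 1316 and 2027 FPKM in 1.6 mm replicates 1, 2 and 3, against 24.7, 7.18 and 2.00 FPKM in 1.4 mm replicates 1, 2 and 3. The groups did not overlap, and the log2 fold change was 7.61 (SE 0.87, adjusted p = 2.21e-07 in limma). It stayed high for longer than the first gene, with 1204 ± 436 FPKM at 1.8 mm, 1008 ± 201 at 2.0 mm and 203 ± 274 at 2.5 mm (mean ± SD, n = 3), where replicates 1, 2 and 3 had 40.7, 49.3 and 520 FPKM. In 1.2 mm replicate 1 it had 20.7 FPKM, against 0.377 and 0.336 in the other 1.2 mm libraries.

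OsKitaake10g136900.v3.1, numbered on chromosome 10, fell most. It had 2.91, 3.14 and 3.84 FPKM in 1.6 mm replicates 1, 2 and 3, against 3920, 2621 and 5339 FPKM in 1.4 mm replicates 1, 2 and 3. Replicate 2 was the lowest of the 1.4 mm libraries and still far above all of 1.6 mm. The log2 fold change was -9.79 (SE 0.47, adjusted p = 2.21e-13 in limma). Its level was 20.2 ± 11.8 FPKM at 0.8 mm, 1185 ± 643 at 1.0 mm, 3762 ± 346 at 1.2 mm and, after the fall, 2.02 ± 1.13 at 1.8 mm, 1.02 ± 0.127 at 2.0 mm and 1.56 ± 1.03 at 2.5 mm (mean ± SD, n = 3).

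OsKitaake03g054100.v3.1, numbered on chromosome 3, had 2.35, 2.50 and 2.79 FPKM in 1.6 mm replicates 1, 2 and 3. It had 3705, 1709 and 3198 FPKM in 1.4 mm replicates 1, 2 and 3, so the groups did not overlap. The log2 fold change was -9.59 (SE 0.45, adjusted p = 2.21e-13 in limma). This gene too was high at 1.2 mm, with 2749 ± 572 FPKM (mean ± SD, n = 3), and its levels from 1.8 to 2.5 mm averaged between 0.725 and 1.53 FPKM.

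**Figure D2:**
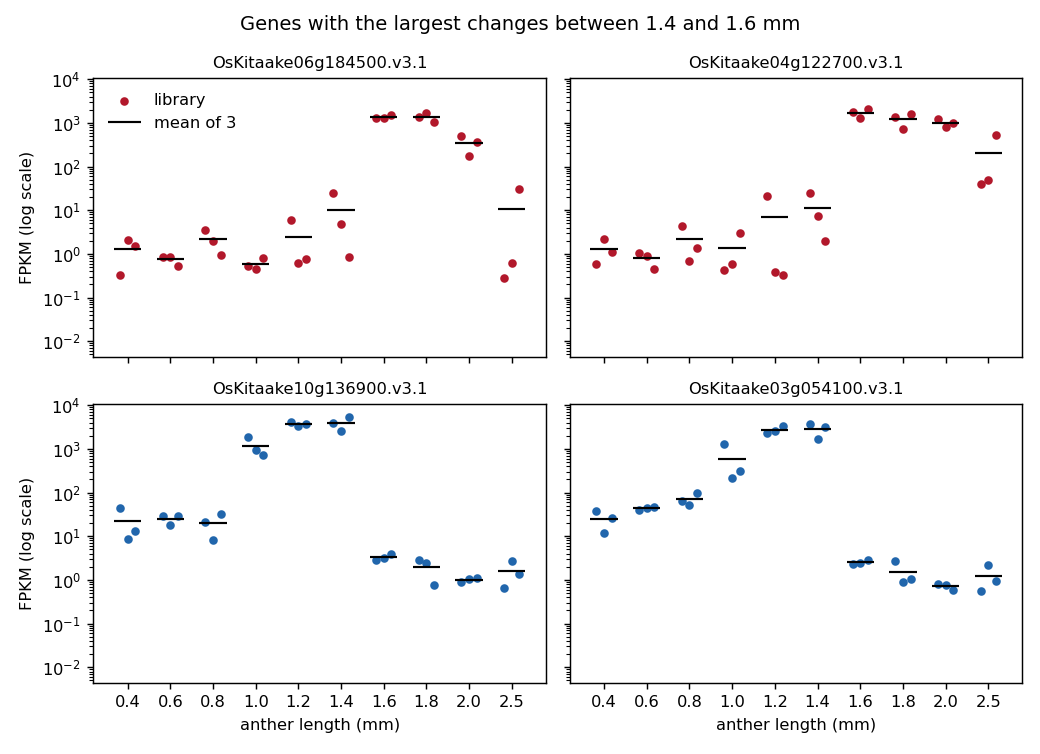
FPKM on a log scale of the 4 genes with the largest changes, in each library of 10 anther lengths, with the mean of 3 libraries as a bar. The upper genes had 1259 FPKM or more at 1.6 mm and 25.0 or less at 1.4 mm, and the lower genes had 3.84 or less at 1.6 mm and 1709 or more at 1.4 mm.

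These 4 genes changed most among called genes whose groups did not overlap and whose higher group averaged 10 FPKM or more, a rule that 1842 rises and 991 falls met. The 20 largest such rises reached log2 fold changes of 5.56 or more, and the 20 largest falls -8.03 or below. Among those 20 falls the mean was at most 10.5 FPKM at 1.6 mm and at least 388 FPKM at 1.4 mm. Among the 20 rises the mean at 1.6 mm ranged from 103 to 6237 FPKM. Without 1.4 mm replicate 2 the log2 fold changes were 7.61 for OsKitaake06g184500.v3.1, 7.57 for OsKitaake04g122700.v3.1, -10.06 for OsKitaake10g136900.v3.1 and -9.92 for OsKitaake03g054100.v3.1.

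Summed over genes, the change took up a large part of the measured RNA. The genes that rose held 33.0%, 33.4% and 33.3% of all FPKM in 1.6 mm replicates 1, 2 and 3, against 5.81%, 14.6% and 6.81% in 1.4 mm replicates 1, 2 and 3. The genes that fell held 2.64%, 2.76% and 2.60% in 1.6 mm replicates 1, 2 and 3, against 46.6%, 14.9% and 31.1% in 1.4 mm replicates 1, 2 and 3. The groups did not overlap in either sum, and in both 1.4 mm replicate 2 lay nearest to 1.6 mm. For the falling genes the gap between the groups was smaller than the range of the 1.4 mm libraries. The calls define these sums, which are given as a description.

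A single gene contributed much of the value of 1.4 mm replicate 1. The most abundant of the genes that fell held 0.254%, 0.365% and 0.193% of the FPKM in 1.6 mm replicates 1, 2 and 3, against 15.6%, 0.355% and 2.18% in 1.4 mm replicates 1, 2 and 3. Its groups overlapped. It was picked out after its values were seen, and its ID is left out under the limit of 2 falls. Without it the genes that fell held 2.39% to 2.41% in 1.6 mm libraries and 31.0%, 14.6% and 28.9% in 1.4 mm replicates 1, 2 and 3. Since FPKM are shares of a library, a gene of this size lowers the FPKM of all others in that library.

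**Figure D3:**
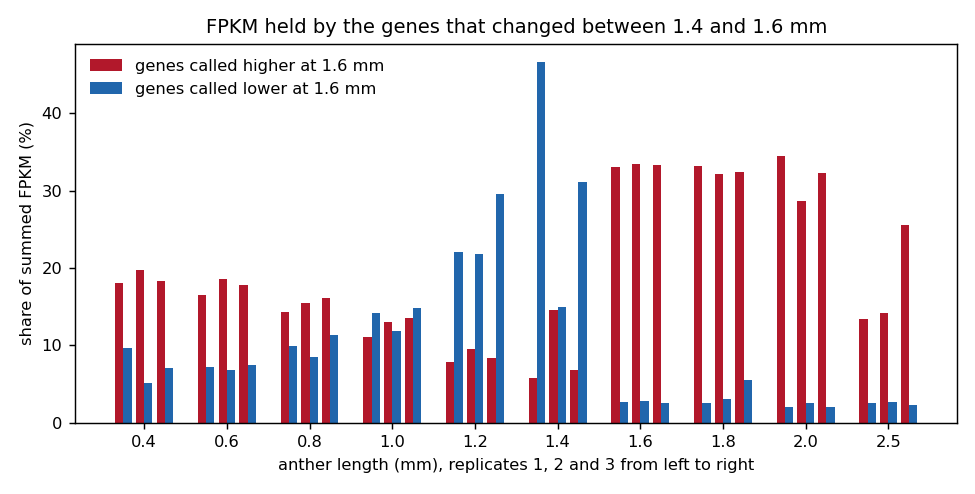
Share of the summed FPKM of each library held by the 3359 genes called higher and the 2043 genes called lower at 1.6 mm, with libraries ordered by anther length. The first share was 33.0% to 33.4% at 1.6 mm and 5.81% to 14.6% at 1.4 mm, and the second 2.60% to 2.76% at 1.6 mm and 14.9% to 46.6% at 1.4 mm.

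The most abundant transcripts were largely exchanged. Of the 100 genes with the highest mean at 1.6 mm, 36 were also among the 100 highest at 1.4 mm. Of the 100 highest at 1.6 mm, 51 were called higher and 2 lower at that size. Of the 100 highest at 1.4 mm, 59 were called lower and 5 higher at 1.6 mm. Over all tested genes 12.9% were called higher and 7.83% lower, but each list was picked by the level in a group that the call compares, which favours calls in that group's direction. The 100 most abundant genes of each library held 18.3% to 20.0% of the FPKM at 1.6 mm and 18.9% to 42.0% at 1.4 mm.

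The position of 1.4 mm replicate 2 was measured on genes called without it. For each gene, the mean of 1.4 mm replicates 1 and 3 was set to 0% and the mean of 1.6 mm to 100% on the log2 scale. On the 4402 genes that rose, replicate 2 lay at a median of 47.5% (quartiles 26.6% and 66.6%), and 46.5% of the genes were past the midpoint. On the 2129 genes that fell it lay at 23.1% (quartiles 3.51% and 47.6%), and 23.4% were past the midpoint. On the FPKM scale itself the medians were 32.0% for rises and 43.0% for falls, so the order of these values depended on the scale.

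By size of change, the position of this library depended on the scale as well. On the log2 scale its median position on genes that rose by 1 to 2 log2 units was 49.6%, against 41.9% on the 161 genes that rose by at least 4. On genes that fell by 1 to 2 log2 units it was 20.1%, against 20.8% on the 220 genes that fell by at least 4. On the FPKM scale the positions on those groups were 37.1% and 11.6% for rises and 32.4% and 56.9% for falls.

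The genes already past the midpoint in 1.4 mm replicate 2 were looked up at other lengths. Of the 498 falling genes past it, 84.3% were on the 1.6 mm side of the midpoint at 0.4 mm, against 65.7% of the other 1631 falling genes. At 1.2 mm the shares were 48.4% and 25.9%. Of the 2046 rising genes past it, 53.6% were on the 1.6 mm side at 0.4 mm, against 46.1% of the other 2356. At 1.2 mm the order was the other way, with 5.96% and 8.53%, and at 2.5 mm too, with 33.6% and 42.2%. These are descriptions of genes grouped by a single library, with no test.

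**Figure D4:**
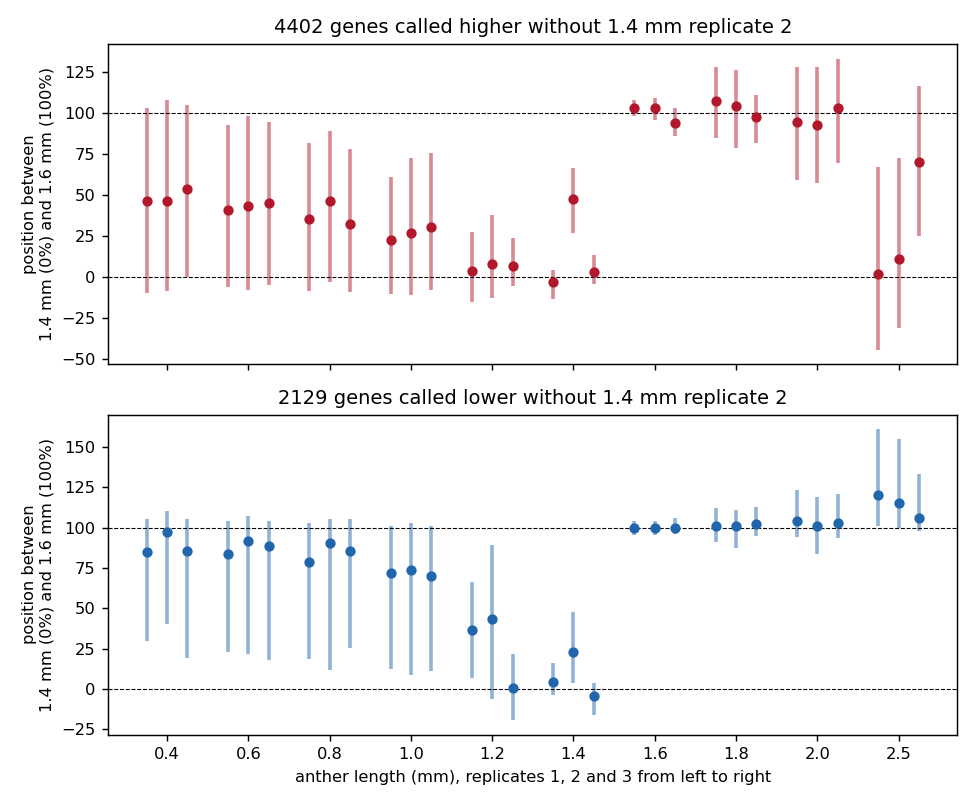
Position of each library between the mean of 1.4 mm replicates 1 and 3 (0%) and the mean of 1.6 mm (100%) on the log2 scale, as the median (point) and quartiles (bar) over the genes called without 1.4 mm replicate 2. That replicate lies at 47.5% for rising and 23.1% for falling genes, and the 2.5 mm libraries lie at 2.01%, 10.9% and 70.0% for rising genes.

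Most falls lasted through 2.5 mm, and a smaller share of the rises did. For each called gene, a length was counted on the 1.6 mm side when its mean lay past the midpoint between the 1.4 and 1.6 mm means. Of the 2043 genes that fell, 97.3% were on that side at 1.8 mm, 93.7% at 2.0 mm and 92.2% at 2.5 mm, and 1797 genes (88.0%) were there at all of these lengths. Of the 3359 genes that rose, 91.8% were on that side at 1.8 mm, 79.0% at 2.0 mm and 35.5% at 2.5 mm. Rescaling also changed which genes were called. At 2.5 mm the share was 47.0% of the 2730 rises called after quantile normalization, and 49.5% of the 2652 called after median-ratio scaling. On the genes called without 1.4 mm replicate 2, 94.3% of the rises were on the 1.6 mm side at 1.8 mm, 82.0% at 2.0 mm and 38.2% at 2.5 mm, and 97.3%, 94.0% and 92.5% of the falls.

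Among the rises, 1136 (33.8%) stayed on the 1.6 mm side through 2.5 mm, 1426 (42.5%) through 2.0 mm only, 500 (14.9%) at 1.8 mm only, and 274 (8.16%) were back at 1.8 mm. The other 23 were there at 1.8 and 2.5 mm and not at 2.0 mm. The 2.5 mm libraries differed: 58.3% of the rises were on the 1.6 mm side in replicate 3 alone, and 29.4% in the mean of replicates 1 and 2. For the falls the shares were 91.5% and 91.9%.

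In smaller anthers the groups of genes differed again. Of the rises, 42.3% were already on the 1.6 mm side at 0.4 mm, 29.5% were there at 1.0 mm and 5.69% at 1.2 mm, so part of the rising genes had been high in the smallest anthers and low between. At 1.2 mm the share was 3.52% of the 3380 rises called without 1.2 mm replicate 2, and 9.67% of the 4021 called after rescaling to TPM. Of the falls, 67.6% were on the 1.6 mm side, here the low side, at 0.4 mm, 57.4% were there at 1.0 mm and 28.8% at 1.2 mm. On the genes called without 1.4 mm replicate 2, 49.6% of the rises and 70.1% of the falls were on the 1.6 mm side at 0.4 mm, and 7.34% and 31.1% at 1.2 mm. Of the 2064 falls called without 1.2 mm replicate 2, 18.5% were on that side at 1.2 mm. Of the 2053 called without 1.2 mm replicate 3, 41.2% were.

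A minority of called genes lay on the 1.4 mm side at every smaller length and on the 1.6 mm side at every larger length. This pattern spans all lengths from 0.4 to 2.5 mm, so it does not measure how sharp the step itself was. On the 1.4 mm side at all 5 smaller lengths and on the 1.6 mm side at all 3 larger lengths were 646 of the rises (19.2%) and 448 of the falls (21.9%). On the 1.6 mm side at all 5 smaller lengths were 123 of the rises (3.66%) and 469 of the falls (23.0%). The highest mean of a falling gene lay at 1.4 mm for 1116 of 2043 genes (54.6%) and at 1.2 mm for 303 (14.8%). The highest mean of a rising gene lay at 1.6 mm for 970 of 3359 genes (28.9%). For 548 it lay at 1.8 mm and for 861 at 2.0 mm, while 324 peaked at 2.5 mm and 401 in the smallest anthers, of 0.4 mm. The calls themselves favour a highest mean at 1.4 mm for falls and at 1.6 mm for rises. The shares of all tested genes that peaked at these lengths are not given, so the peaks are a description only.

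**Figure D5:**
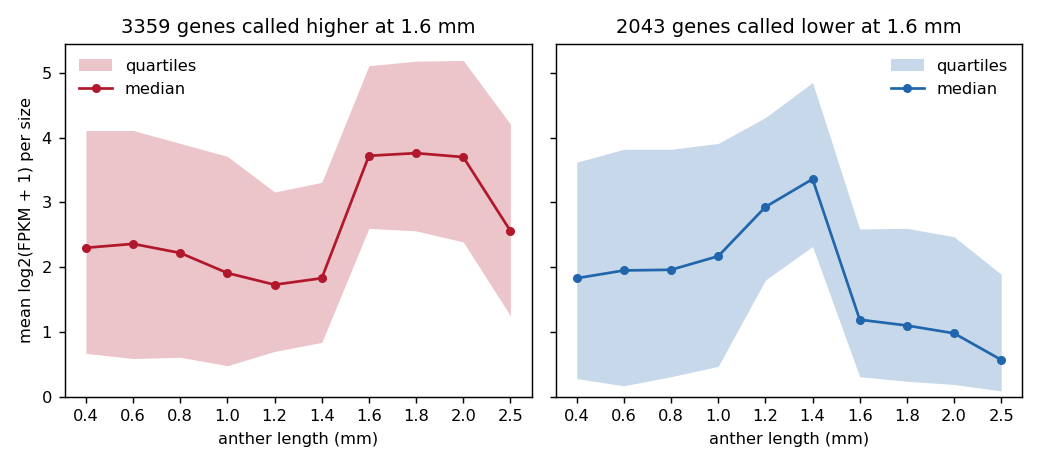
Median and quartiles of mean log2(FPKM + 1) by anther length, for the 3359 genes called higher and the 2043 genes called lower at 1.6 mm. The medians were 3.72 at 1.6 mm against 1.83 at 1.4 mm for rising genes, and 1.19 at 1.6 mm against 3.36 at 1.4 mm for falling genes, which the calls fix, while the values at the other 8 lengths come from other libraries.

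The same genes were looked up in 6 libraries that the step does not use, those of 1.8 mm against those of 1.2 mm. In that comparison 7301 genes were called (28.0% of those tested), with 18.3% higher and 9.69% lower at 1.8 mm. Of the 3359 rises, 2657 (79.1%) were called higher at 1.8 mm and 6 lower. Of the 2043 falls, 1321 (64.7%) were called lower at 1.8 mm and 4 higher. The median differences were 1.63 and -1.41 on the log2 scale, against 0.22 over all tested genes. With all calls made without 1.2 mm replicate 3, the shares were 77.9% of 3365 rises and 53.0% of 2053 falls. On the genes called without 1.4 mm replicate 2 they were 74.1% and 64.5%. The fit shares its estimate of the spread with that of the step.

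The neighbouring steps are given beside this one. The median change of the rising genes was 0.08 at 1.4 against 1.2 mm and 0.02 at 1.8 against 1.6 mm, on the log2 scale, beside 1.47 in the step itself. That of the falling genes was 0.41 at 1.4 against 1.2 mm and -0.03 at 1.8 against 1.6 mm, beside -1.70. These steps share the 1.4 or the 1.6 mm libraries with the step, and the genes were chosen by their change in this one, so the medians are given side by side only.

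The difference between the steps was tested gene by gene in the same fit. The change from 1.4 to 1.6 mm differed from that from 1.2 to 1.4 mm in 3526 genes (13.5% of those tested), 1712 (6.56%) with a higher value in the later step and 1814 (6.95%) with a lower one. It differed from the change from 1.6 to 1.8 mm in 2618 genes (10.0%), 1541 (5.91%) with a higher value in the earlier step and 1077 (4.13%) with a lower one. Of the 3359 rises, 1409 (41.9%) differed from the step before and 1366 (40.7%) from the step after. Of the 2043 falls, 1418 (69.4%) with a lower value and 1 with a higher one differed from the step before, and 1004 (49.1%) from the step after. The rises and falls were themselves chosen on this step, so nothing is read from how far these shares exceed those of all tested genes.

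The counts moved with single libraries. Without 1.4 mm replicate 3, 1699 genes differed from the step before. Without 1.6 mm replicates 1, 2 and 3 in turn, 1400, 1543 and 1546 genes differed from the step after. Without 1.4 mm replicate 2, the counts were 4398 from the step before and 3757 from the step after. For the named genes the differences from the step before were 6.43 (SE 1.47, adjusted p = 3.70e-03 in limma) for OsKitaake06g184500.v3.1 and -9.81 (SE 0.81, adjusted p = 3.77e-08) for OsKitaake10g136900.v3.1.

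By the chromosome number in the ID, the share of tested genes that rose ranged from 11.4% on chromosome 8 to 14.3% on chromosome 7, against 12.9% in all. The share that fell ranged from 6.17% on chromosome 7 to 10.2% on chromosome 10, against 7.83% in all. Positions are not in the files, and no test of these shares was made.

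Neighbouring IDs were called in the same direction more often than tested genes at large, with no test made. In the order of ID numbers, 17.7% of the rising genes were followed by another rising gene, against 12.9% over all tested genes. Of the falling genes, 16.9% were followed by another falling gene, against 7.81% over all tested genes. Rising genes formed 109 runs of at least 3, of which 1 reached 6 genes, on chromosome 5. Falling genes formed 50 runs of at least 3, and 6 of these held at least 6 genes, on chromosomes 1, 2, 8 and 10. Reads of overlapping or near-identical neighbours could be split between IDs, and the sources used here do not say how the authors assigned them.

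The long runs of falling genes on chromosome 10 were highest in 1.4 mm replicates 1 and 3. Runs of 10 and 7 IDs lay close together on chromosome 10, with 15 tested IDs between them. The summed level of these 17 IDs was 87.9, 107 and 52.5 FPKM in 1.6 mm replicates 1, 2 and 3, against 3727, 130 and 3904 FPKM in 1.4 mm replicates 1, 2 and 3. In the 28 libraries other than 1.4 mm replicates 1 and 3 the sum ranged from 14.9 to 616 FPKM. In all 6 compared libraries, 4 of the 17 IDs had values within 5% of another of them. At 1.8 against 1.2 mm, 0 of the 17 were called lower in limma. Without them 9.14% of tested genes on chromosome 10 fell.

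A small class of IDs with an M in place of a chromosome number moved in the same libraries. The files list 61 such IDs, of which 37 were tested. Of these 7 fell (18.9%, against 7.83% of all tested genes), with log2 fold changes of -2.20 to -4.05, and 1 rose (2.70%, against 12.9%). The summed level of these 7 was 47.0, 58.1 and 28.1 FPKM in 1.6 mm replicates 1, 2 and 3, against 2035, 72.4 and 2115 FPKM in 1.4 mm replicates 1, 2 and 3. Over the 28 other libraries it ranged from 7.62 to 352 FPKM. The run of 10 IDs on chromosome 10 had similar sums, of 46.8, 56.3 and 28.2 FPKM in 1.6 mm replicates 1, 2 and 3. In 1.4 mm replicates 1, 2 and 3 that run summed to 1936, 68.4 and 1931 FPKM. Whether the M IDs and the run share reads was not tested, so they may not be separate observations. At 1.8 against 1.2 mm, 0 of the 7 M IDs were called lower in limma. The other 54 M IDs summed to 260 to 347 FPKM in 1.6 mm libraries and 203 to 357 FPKM in 1.4 mm libraries, whose ranges overlapped. What the M stands for is not given in the files.

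The other runs of at least 6 falling IDs had lower sums. The 6 falling IDs in a row on chromosome 1 summed to 4.02, 2.94 and 1.19 FPKM in 1.6 mm replicates 1, 2 and 3, against 64.4, 44.1 and 73.4 FPKM in 1.4 mm replicates 1, 2 and 3. A further run on chromosome 10, of 6 IDs, summed to 1.75, 2.02 and 1.33 FPKM in 1.6 mm replicates 1, 2 and 3, against 67.3, 40.8 and 71.9 FPKM in 1.4 mm replicates 1, 2 and 3. In both, 1.4 mm replicate 2 was with the other 1.4 mm libraries. In the remaining runs, on chromosomes 2 and 8, 1.4 mm replicate 2 lay well below the other 1.4 mm libraries. In the run of 7 on chromosome 2 it had 7.85 FPKM, nearer to the 3.14 to 4.08 FPKM of 1.6 mm libraries than to the 40.8 and 51.1 FPKM of 1.4 mm replicates 1 and 3. The run of 6 on chromosome 8 had 19.7 FPKM in that library, between the 2.61 to 3.71 FPKM of 1.6 mm libraries and the 90.2 and 80.3 FPKM of 1.4 mm replicates 1 and 3.

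The deposited names also carry an index from 1 to 30, whose meaning is not stated. All 3 libraries of 1.6 mm had an index of 22 or more, and all 3 of 1.4 mm one of 21 or less. Within either set of indices the comparison of 1.6 with 1.4 mm had no libraries on one side. Since lengths of 0.4, 0.6, 0.8 and 1.2 mm had libraries in both sets, a term for the index could be fitted. With it 5187 genes were called, 4299 of them among the 5402 and in the same direction. Of the rises 77.3% and of the falls 83.3% were still called. The 1.8 mm libraries all had an index of 21 or less, as did the 1.2 mm libraries other than replicate 3.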

How the data were processed

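The authors deposited FPKM per transcript entry for each polyadenylated RNA library, 48494 entries named by gene ID only, per the file headers. Libraries were made with a directional kit, per the labels' protocols. HISAT2 2.1.1 and StringTie 2.1.4 are named in the submitters' processing notes, and no genome build is named in the sources used. Entries were summed per gene ID. Their row order differed between the 30 files, so transcripts of a gene were not followed across libraries. Whole reads were not recovered, and no count model was used. Small RNA libraries were not used here. Groups and replicate numbers come from the titles. Fits used limma 3.58.1 (lmFit, eBayes with trend) in R 4.3.3, on log2(FPKM + 1) with the 10 lengths as 1 factor, and summaries used pandas 2.3.3. The method was tested on simulated data that gave each gene the same spread at every length. The real replicates differed in spread between lengths, so that test does not cover this feature of the data. Lists of anther genes and markers matched 0 IDs and were not used. The comparison, lists and rules were chosen with earlier results of these data known. Genes are named by ID where they are the 2 that rose most or the 2 that fell most, of those called with 10 FPKM or more in the higher group, no overlap, and no group at 0 throughout. Alternatives changed the pseudocount, filter, scaling, summary per gene, model terms, call rule and libraries.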

Additional observations from a re-analysis of the deposited data

How the results depend on the processing

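Under 11 alternatives the count of genes that changed between 1.4 and 1.6 mm was 5148 to 8663, and with single libraries of 1.6 or 1.4 mm left out 4585 to 6531, against 5402. It moved by over 1.5 times only with adjusted p alone, which called 8663 genes (5572 higher, 3091 lower at 1.6 mm). The rises were 2540 to 4402 and the falls 1757 to 2129 with single libraries left out. For 1.8 against 1.2 mm adjusted p alone gave 11570 genes, and libraries left out gave 6998 to 7418. Genes that differed from the step before numbered 2043 in a fit of those lengths alone and 1699 to 4398 with libraries left out. Those that differed from the step after numbered 1623 with the index term and 1400 to 3757 with libraries left out. Why these counts moved was not tested. The 4 named genes kept their call and direction in all 68 values. In a limma fit of the 1.4 and 1.6 mm libraries alone, their adjusted p ranged from 5.47e-07 to 1.16e-04. A fit with the replicate number as a block called 5414 genes. Same-numbered libraries of 1.6 and 1.4 mm deviated from their group means with correlations of -0.0567, 0.0371 and 0.0165. Libraries with different numbers had correlations from -0.0652 to 0.0704. The numbers were not used as pairs in the main fit, and this check cannot show whether same-numbered samples shared an origin. Of the 2730 rises called after quantile normalization, 33.7% were on the 1.6 mm side at 0.4 mm and 47.0% at 2.5 mm. Of the 2652 called after median-ratio scaling, the shares were 32.0% and 49.5%. With no depth given, low FPKM cannot be told from chance sampling of few reads.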
